A study of Mus musculus with 15 samples.

Results

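This account follows 10 genes of serine synthesis, mitochondrial one-carbon metabolism and the ATF4 response in mouse liver: Phgdh, Psat1, Psph, Shmt2, Mthfd2, Aldh1l2, Asns, Atf4, Atf5 and Trib3. They were taken by gene symbol from 2 deposited expression tables, 1 per diet, which list the same 23509 genes, and all 10 were found in both. The study crossed the Aldh2 genotype with an ethanol diet in a fibrosis model. Aldh2 encodes the mitochondrial aldehyde dehydrogenase that clears the acetaldehyde made from ethanol. Liver RNA came from 15 libraries of male C57BL/6 mice aged 8 to 10 weeks per the labels, which do not say whether this is the age at the start or at the end. The library names of the labels are used here: EK for Aldh2-/- livers under ethanol (n = 4), EW for WT livers under ethanol (n = 5), CK for Aldh2-/- livers of pair-fed mice (n = 3) and CW for WT livers of pair-fed mice (n = 3). Per the labels, every group also received carbon tetrachloride (CCl4), a liver toxin given into the peritoneum for 8 weeks, and livers were collected 24 h after the last dose, although the sample titles name CCl4 for the ethanol groups only. No mice without CCl4 were analysed here. The allele is named only as Aldh2-/-, with no promoter, exon or cell type.

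The liver can make serine from a glycolytic intermediate. Phosphoglycerate dehydrogenase (Phgdh) oxidises it, phosphoserine aminotransferase (Psat1) adds the amino group and phosphoserine phosphatase (Psph) releases serine. In mitochondria, serine hydroxymethyltransferase (Shmt2) moves a carbon of serine to folate, Mthfd2 oxidises that one-carbon unit and Aldh1l2 can burn it to CO2 while making NADPH. ATF4 is a transcription factor whose protein is translated when the initiation factor eIF2 is phosphorylated, under amino acid shortage, endoplasmic reticulum stress or mitochondrial stress, so that its mRNA is not a measure of its protein. It binds composite elements with partners of the C/EBP family. Asparagine synthetase (Asns), the pseudokinase gene Trib3, which restrains ATF4, and the serine genes are known targets, and ATF5 is a related factor that is also under translational control.

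Promoter sequence is shown for the members whose letters bear on this. Asns and Trib3 are shown because their windows hold the C/EBP-ATF element. Phgdh, Psat1 and Psph are shown as the enzymes of serine synthesis, all higher in pair-fed Aldh2-/- than in pair-fed WT livers. Under ethanol Psph was lower in Aldh2-/- livers. Psat1 was also lower there, but 12 of 17 alternative fits did not keep that result. Phgdh overlapped between the genotypes under ethanol and did not pass the test. Whether these genes differed from each other under ethanol was not tested. Windows ran from 250 bases before to 50 after each RefSeq start (GRCm38.p6), and 9 of the 10 members had one, in 11 windows. Each sequence below reads 5′ to 3′ on the gene's own strand, which is the minus strand in every case. Capitals mark a match to TGATGNAA, searched on both strands.
Asns, the 100 bases before the start, chr6:7693210-7693309: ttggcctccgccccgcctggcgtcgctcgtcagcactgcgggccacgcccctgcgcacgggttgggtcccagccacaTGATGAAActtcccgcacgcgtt
Trib3, bases 4 to 33 after the start, chr2:152344028-152344057: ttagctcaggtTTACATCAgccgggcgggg
Phgdh, the 100 bases before the start, chr3:98339970-98340069: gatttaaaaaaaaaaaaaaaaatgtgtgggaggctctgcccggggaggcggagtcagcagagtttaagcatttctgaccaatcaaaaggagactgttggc
Psat1, the 100 bases before the start, chr19:15925060-15925159: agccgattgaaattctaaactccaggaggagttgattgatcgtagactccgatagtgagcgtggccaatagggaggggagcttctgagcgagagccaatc
Psph, the 100 bases before the start, chr5:129787254-129787353: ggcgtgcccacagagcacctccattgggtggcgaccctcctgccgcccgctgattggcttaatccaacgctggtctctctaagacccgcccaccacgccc
In Asns the match TGATGAAA begins 23 bases before the start on the gene strand. In Trib3 the match TGATGTAA lies on the opposite strand and begins at base 15 after the start. These starts are those of RefSeq. By the gene limits of GENCODE vM21 the Trib3 match lies before the gene, which begins at position 152344032, and the Asns match lies inside the gene, which begins at position 7693254. By the same limits the Psat1 stretch lies far inside its gene, which begins at position 15947337. The Psph stretch also lies inside its gene (beginning at 129787449), and the Phgdh stretch spans the beginning of its gene (98339990). TGATGNAA was found in 1304 of 32851 promoter windows (3.97%), and in these 2 of the 9 members. The cAMP response element TGACGTCA was in 1.79% of all windows and in none of the members'. These are matches of letters within a window and say nothing of binding in these livers.

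Per GENCODE vM21 on GRCm38, all 10 members are protein-coding: Phgdh at chr3:98313170-98339990, Psat1 at chr19:15904678-15947337, Psph at chr5:129765558-129787449, Shmt2 at chr10:127517123-127522444, Mthfd2 at chr6:83305691-83325908, Aldh1l2 at chr10:83487450-83534140, Asns at chr6:7675169-7693254, Atf4 at chr15:80255184-80257541, Atf5 at chr7:44812256-44816658 and Trib3 at chr2:152337422-152344032. Atf4 lies on the plus strand and the others on the minus strand. Exons of genes on the opposite strand share 1056 of the 7503 exon bases of Aldh1l2 (with D10Wsu102e), 452 of 4329 of Psph (with Cct6a), 82 of 1993 of Atf5 (with Nup62 and Il4i1) and 32 of 3109 of Shmt2 (with Ndufa4l2). Whether reads were counted by strand is not given in the sources used here, so these 4 genes could hold reads of their neighbours.

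Values are FPKM, fragments per kilobase of gene, scaled to the total of each library. Steps between low values put the relative depth of the libraries at 90.0% to 111.0% of their mean, and total counts were not given. Aldh2 itself separated the genotypes, at 8.82 to 11.5 FPKM in EK against 544 to 688 FPKM in EW, and 6.57 to 6.90 FPKM in CK against 277 to 309 FPKM in CW. All 12 hepatocyte markers were present in every group, with a summed level of 60259 to 91778 FPKM over the 15 libraries. The mitochondrial genome gave 15.2% to 24.2% of all FPKM in CW and 6.90% to 10.8% in CK. Under ethanol it gave 6.68% to 9.72%, with EW5 (13.6%) and EK90 (18.2%) higher than that. The labels number the libraries but do not say that each is a separate mouse, so p-values measure the spread between these libraries. In bulk liver, fewer cells of a type and less RNA per cell cannot be told apart.

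The genotypes were first compared without ethanol. In pair-fed livers the 3 enzymes of serine synthesis were 4.23-fold to 4.97-fold higher in Aldh2-/- than in WT livers. Phgdh stood at 11.5, 6.10 and 4.21 FPKM in CK1, CK2 and CK9 and at 1.60, 1.32 and 1.48 FPKM in CW18, CW19 and CW20. The lowest Aldh2-/- library lay above the highest WT library by a wide gap, and CK1 was the highest of all 15 libraries. The means were 7.28 ± 3.79 and 1.46 ± 0.139 FPKM (SD, n = 3 and 3), a fold of 4.97, and the change on the log2(FPKM + 1) scale was 1.65 (SE 0.28, limma adjusted p = 0.0106). A fold here is the ratio of group means, and a log2 change is a difference of means of log2(FPKM + 1), which understates changes of low genes.

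Psat1, the next enzyme, had the same order of Aldh2-/- libraries, with 12.0, 9.01 and 3.99 FPKM in CK1, CK2 and CK9 against 2.06, 1.75 and 1.50 FPKM in the 3 WT libraries. Groups did not overlap, at a mean of 8.33 ± 4.04 against 1.77 ± 0.277 FPKM (SD, n = 3 and 3; 4.71-fold; log2 change 1.65 ± 0.31, SE, limma adjusted p = 0.013). Leaving out CW20 ended that call, at an adjusted p of 0.0551 by limma. Psph, the last enzyme, stood at 12.9, 12.1 and 6.71 FPKM in CK1, CK2 and CK9 and at 2.50, 3.04 and 1.94 FPKM in WT. CK9 was again the lowest Aldh2-/- library and still above every WT library. The Psph means were 10.6 ± 3.36 and 2.49 ± 0.549 FPKM (SD, n = 3 and 3; 4.23-fold; log2 change 1.69 ± 0.23, SE, limma adjusted p = 0.00638).

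The mitochondrial enzymes moved less evenly. Mthfd2 was at 3.86, 2.95 and 1.21 FPKM in CK1, CK2 and CK9 and at 0.772, 0.790 and 0.414 FPKM in WT, a fold of 4.06 between the means of 2.67 ± 1.35 and 0.659 ± 0.212 FPKM (SD, n = 3 and 3). All 3 Aldh2-/- libraries were higher than the WT libraries, CK9 by the least (log2 change 1.08 ± 0.27, SE, limma adjusted p = 0.0238). Shmt2, far more abundant, stood at 84.4, 78.3 and 76.9 FPKM in Aldh2-/- and 57.8, 52.3 and 64.4 FPKM in WT livers. This is a small difference without overlap, 1.37-fold (log2 change 0.45 ± 0.12, SE, limma adjusted p = 0.0311). Aldh1l2 did not pass the filter of a mean of 0.5 FPKM in any comparison and was not tested. Its values were 0.373, 0.262 and 0.115 FPKM in CK1, CK2 and CK9 against 0.408, 0.220 and 0.367 FPKM in CW18, CW19 and CW20, with overlap.

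Among the ATF4 genes, Atf4 and Atf5 were higher in pair-fed Aldh2-/- livers and Asns and Trib3 did not pass the test. Atf4 was at 104, 90.6 and 79.6 FPKM in Aldh2-/- and 75.7, 55.8 and 50.5 FPKM in WT livers (1.51-fold; log2 change 0.60 ± 0.18, SE, limma adjusted p = 0.0385). CK9, the lowest Aldh2-/- library, was just above CW18, the highest WT library. Atf5 was at 777, 565 and 497 FPKM in CK1, CK2 and CK9 against 409.8, 437 and 351 FPKM in WT (1.54-fold; log2 change 0.60 ± 0.18, SE, limma adjusted p = 0.0431), again without overlap. Asns was at 3.48, 2.08 and 1.53 FPKM against 1.41, 0.400 and 1.19 FPKM in CW18, CW19 and CW20, where CW19 was low. Its groups did not overlap, and its fold of 2.36 had a limma adjusted p of 0.0586 (log2 change 0.75, 95% interval 0.16 to 1.33). It passed without CK9, at an adjusted p of 0.0398 by limma. Trib3 overlapped, at 13.5, 10.5 and 6.19 FPKM against 6.75, 5.65 and 8.63 FPKM (limma adjusted p = 0.225), and also passed without CK9 (adjusted p = 0.0387).

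In all, 7 of the 9 members tested were called higher and 0 lower in pair-fed Aldh2-/- livers, where called means a limma adjusted p under 0.05. Of the 11138 genes tested, 26.0% were called higher and 2.41% lower, and the median log2 change was 0.75 over the 9 members and 0.26 over all genes. After median-ratio rescaling, the median of all genes moved to 0.02, the calls over all genes went from 2894 higher and 268 lower to 258 higher and 379 lower, and 3 members (Phgdh, Psat1 and Psph) kept the call. Relative to the median of all genes, Psph lay 1.44, Phgdh 1.40, Psat1 1.39, Mthfd2 0.82, Atf4 0.34, Atf5 0.34 and Shmt2 0.20 higher on the log2 scale. The count also fell to 3 without CK1, 3 without CK2, 4 without CW18, 4 without CW19 and 2 without CW20, and it was 9 without CK9. Phgdh and Psph kept their call under all 14 alternatives. Of the macrophage markers 7 of 15 tested were called higher in the same comparison (summed 468 to 626 FPKM in CK against 228 to 342 FPKM in CW), as were 3 of 11 stellate cell and fibroblast and 2 of 5 neutrophil markers, with Ly6g at 0 in all CW libraries. Endothelial (0 higher and 1 lower of 10), lymphocyte (0 of 5), cholangiocyte (1 of 8) and red cell and platelet (1 of 7) markers had few calls, and of 12 hepatocyte markers 1 was called higher and 4 lower. The part of these cells was not tested.

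**Figure D1:**
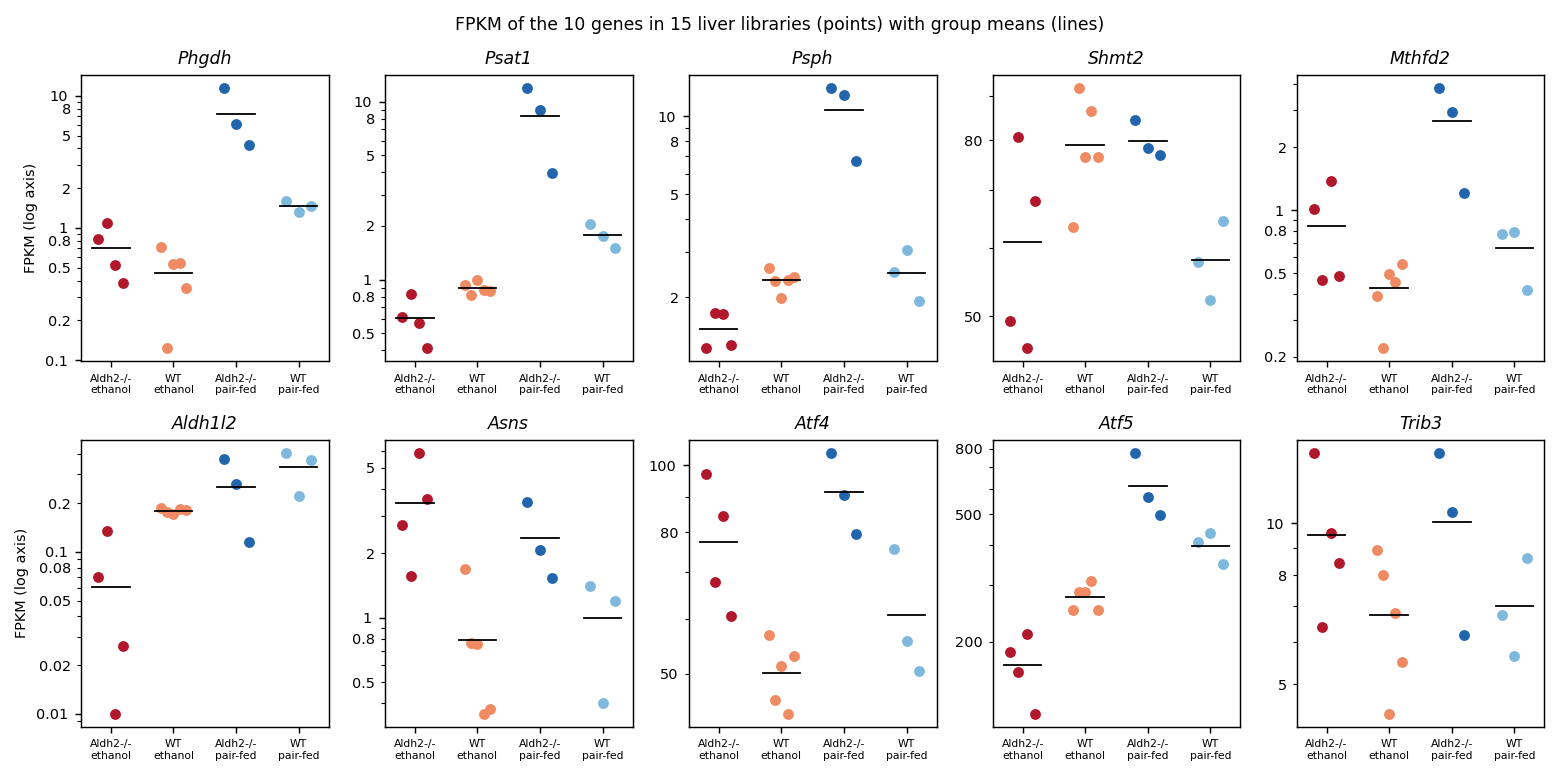
FPKM (log axis) of each of the 10 genes in the 15 libraries, by genotype and diet, with a line at each group mean and a separate scale per gene. Pair-fed Aldh2-/- libraries are above all others for Phgdh, Psat1 and Psph, and ethanol-fed Aldh2-/- libraries are the lowest group for Atf5 and Psph.

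Under ethanol Asns and Atf4 were called higher in Aldh2-/- livers, as Atf4 was under pair-feeding, and Psph, Psat1 and Atf5 were called lower. Asns stood at 2.71, 1.56, 5.88 and 3.56 FPKM in EK86, EK89, EK90 and EK96 and at 1.69, 0.761, 0.752, 0.358 and 0.377 FPKM in EW5, EW6, EW7, EW11 and EW12. EK90 was the highest of all 15 libraries, and EK89, the lowest Aldh2-/- library, was slightly under EW5. The means were 3.43 ± 1.83 and 0.787 ± 0.540 FPKM (SD, n = 4 and 5), a fold of 4.36 (log2 change 1.26 ± 0.27, SE, limma adjusted p = 0.00524). Both libraries with high mitochondrial shares, EK90 and EW5, were also the highest of their group for Asns. Without both, the log2 change was 1.18 (limma adjusted p = 0.00241).

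Atf4 stood at 97.1, 67.7, 84.4 and 60.6 FPKM in EK86, EK89, EK90 and EK96 against 56.8, 45.8, 51.3, 43.8 and 53.0 FPKM in the 5 WT libraries. Every Aldh2-/- library was higher than every WT library, at 1.54-fold between means (log2 change 0.60 ± 0.15, SE, limma adjusted p = 0.00922). Atf5 went the other way, at 186, 162, 211 and 119 FPKM in EK86, EK89, EK90 and EK96 against 251, 286, 286, 309.7 and 251 FPKM in WT, again with no overlap. It was 1.63-fold lower (log2 change -0.73 ± 0.16, SE, limma adjusted p = 0.0055). Trib3 overlapped between the genotypes, with 13.6, 6.41, 9.60 and 8.45 FPKM in Aldh2-/- and 8.92, 8.01, 4.41, 6.80 and 5.49 FPKM in WT livers (log2 change 0.43, 95% interval -0.04 to 0.91, limma adjusted p = 0.136).

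The serine synthesis genes were low in both genotypes under ethanol. Psph was at 1.27, 1.74, 1.72 and 1.31 FPKM in the 4 Aldh2-/- libraries and 2.59, 2.32, 1.98, 2.33 and 2.40 FPKM in the 5 WT libraries. The groups did not overlap, and Psph was 1.54-fold lower in Aldh2-/- (log2 change -0.41 ± 0.09, SE, limma adjusted p = 0.00701). Psat1 was at 0.613, 0.831, 0.571 and 0.411 FPKM in Aldh2-/- and 0.938, 0.821, 0.993, 0.875 and 0.868 FPKM in WT livers, where EK89 overlapped the WT range. Its fall of 1.48-fold (log2 change -0.25 ± 0.09, SE, limma adjusted p = 0.0433) was past the threshold by little and lost the call in 12 of 17 alternatives, among them leaving out any 1 of EK86, EK90, EK96, EW5, EW6, EW7, EW11 and EW12. Phgdh was at 0.830, 1.09, 0.528 and 0.387 FPKM in Aldh2-/- and 0.713, 0.123, 0.538, 0.544 and 0.351 FPKM in WT livers, with overlap (log2 change 0.23, 95% interval -0.10 to 0.56, limma adjusted p = 0.241). These are low levels: the steps of the table put them at 8 to 74 inferred fragments per library for Phgdh and 34 to 91 for Psat1, where counting error alone is large.

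Of the mitochondrial enzymes under ethanol, Shmt2 was at 49.3, 80.7, 45.9 and 68.0 FPKM in the 4 Aldh2-/- libraries and 63.5, 92.0, 76.6, 86.4 and 76.5 FPKM in the 5 WT libraries (log2 change -0.39, 95% interval -0.78 to -0.01, limma adjusted p = 0.101). EK89 overlapped the WT range, and without it the fall passed at an adjusted p of 0.0297 by limma. Mthfd2 was at 1.02, 0.467, 1.38 and 0.484 FPKM in Aldh2-/- and 0.391, 0.219, 0.499, 0.454 and 0.555 FPKM in WT livers, where EK86 and EK90 were above all WT libraries and EK89 and EK96 among them (log2 change 0.34, limma adjusted p = 0.0915). It passed without EK89 (limma adjusted p = 0.0457) or without EK96 (0.041). These Mthfd2 levels are low, at 18 to 106 inferred fragments per library. Aldh1l2, not tested, was at 0.0701, 0.135, 0.0100 and 0.0261 FPKM in EK86, EK89, EK90 and EK96 and at 0.186, 0.175, 0.172, 0.183 and 0.181 FPKM in WT livers. All 4 Aldh2-/- values were lower, 2.98-fold between means and 5.06-fold without EK89, at 3 to 45 inferred fragments in Aldh2-/- libraries.

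Under ethanol 2 of 9 members were thus called higher and 3 lower, against 21.5% of 11013 genes called higher and 15.7% called lower. The median log2 change was 0.23 over the members and 0.04 over all genes. Over all genes, the split of 2365 higher and 1733 lower became 1942 higher and 2447 lower after median-ratio rescaling, while Asns, Atf4, Atf5, Psph and Psat1 kept direction and call. Markers of other cells moved with the genotype under ethanol. Of the macrophage markers 12 of 13 tested were called higher in Aldh2-/- livers (summed 703 to 1507 FPKM in EK against 293 to 368 FPKM in EW), as were 10 of 10 endothelial markers, 5 of 5 neutrophil, 8 of 11 stellate cell and fibroblast, 8 of 8 red cell and platelet, 4 of 8 cholangiocyte and 2 of 4 lymphocyte markers. Of 12 hepatocyte markers 1 was called higher and 2 lower. None of these lists had a marker at 0 in all libraries of EK or EW. Their part in the members' differences was not tested.

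The interaction asked whether the genotype difference itself differed between the diets (ethanol minus pair-fed). An offset between both tables that is constant on the log2(FPKM + 1) scale would drop out of it. A difference in scale would not drop out fully for genes near or under 1 FPKM. Under ethanol these included Phgdh (means of 0.709 FPKM in EK and 0.454 FPKM in EW), Psat1 (0.606 and 0.899) and Mthfd2 (0.838 and 0.424). The interaction was below 0 and past the threshold for all 3 serine synthesis genes: -2.10 ± 0.24 for Psph (SE, limma adjusted p = 7.49e-05), -1.90 ± 0.31 for Psat1 (0.000514) and -1.42 ± 0.32 for Phgdh (0.00385). With a pseudocount of 0.1 in place of 1, the Phgdh interaction was -1.53 and lost the call (limma adjusted p = 0.0501). Atf5 differed by -1.33 ± 0.26 (limma adjusted p = 0.00166), with all ethanol-fed Aldh2-/- libraries under their WT group and all pair-fed ones above theirs. Shmt2 differed by -0.85 ± 0.24 (limma adjusted p = 0.0143), a call that median-ratio rescaling (0.0946) and quantile normalization (0.155) ended.

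For the remaining members no difference between diets was shown. The interaction was 0.00 for Atf4 (95% interval -0.51 to 0.51, limma adjusted p = 0.995), 0.01 for Trib3 (-0.77 to 0.79), 0.52 for Asns (-0.40 to 1.44) and -0.74 for Mthfd2 (-1.40 to -0.07, limma adjusted p = 0.0745). The intervals of Trib3 and Asns are wide, and that of Atf4 is not narrow beside its log2 change of 0.60 under each diet. Like responses of these members are thus not shown either. Mthfd2 passed without CK9 (limma adjusted p = 0.00554) or without EK90 (0.0393). In total 0 of 9 members were called higher and 5 lower, beside 8.06% and 29.0% of 11157 genes, with a median of -0.85 over the members and -0.22 over all genes. Median-ratio rescaling moved the median of all genes to -0.07 and the split from 899 higher and 3235 lower to 1379 and 1781. Relative to the median of all genes the members stood at -1.88 (Psph), -1.68 (Psat1), -1.20 (Phgdh), -1.11 (Atf5) and -0.63 (Shmt2).

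**Figure D2:**
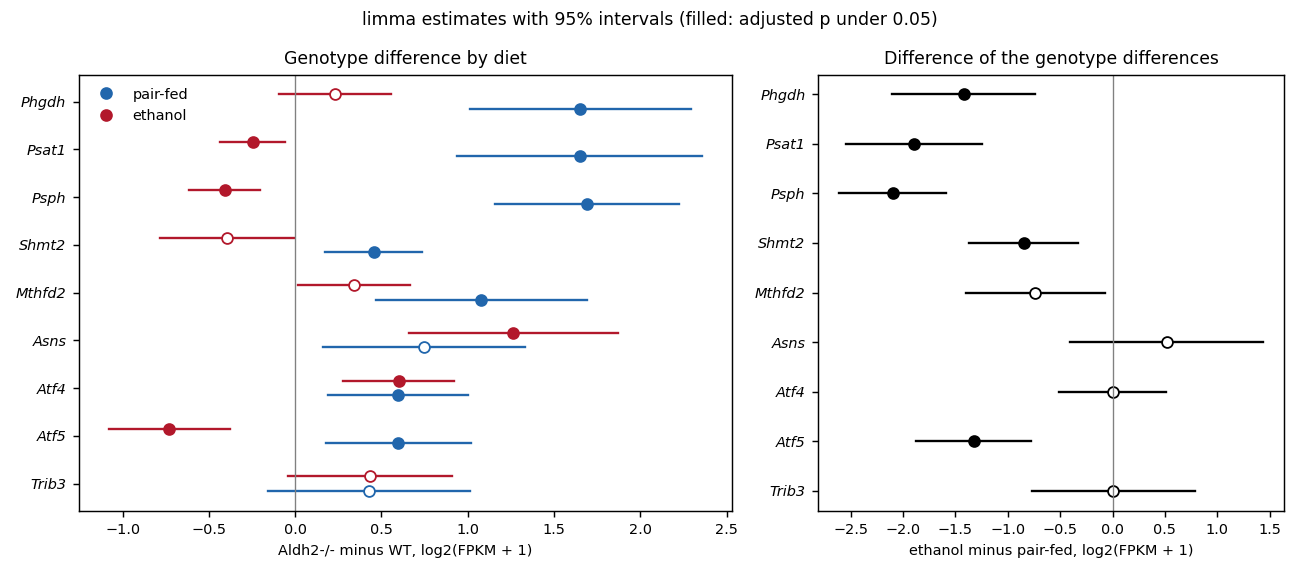
Left, the difference between Aldh2-/- and WT livers on the log2(FPKM + 1) scale for the 9 genes tested, under ethanol (red) and pair-feeding (blue), and right, the difference of these differences, each with its 95% interval. Filled points passed a limma adjusted p of 0.05, and Psph, Psat1, Atf5 and Shmt2 lie on opposite sides of 0 under the 2 diets. The ethanol point of Shmt2 did not pass.

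Between diets, the serine genes of Aldh2-/- livers were lower under ethanol than under pair-feeding. Diet coincided with the deposited table, so an effect of the table cannot be told apart from diet in any of these values. In Aldh2-/- livers Psat1 was 13.7-fold lower (log2 change -2.44 ± 0.22, SE, limma adjusted p = 1.32e-06), Phgdh 10.3-fold (4.18e-06), Psph 6.99-fold (4.54e-07), Atf5 3.62-fold (2.88e-06) and Mthfd2 3.19-fold (0.00284). EK and CK libraries did not overlap for Psat1, Phgdh, Psph and Atf5, and overlapped for Mthfd2. These 5 of 9 members were called lower and 0 higher, beside 29.3% and 17.6% of all genes (3264 lower and 1967 higher, or 2699 and 2401 after median-ratio rescaling). In WT livers Phgdh was 3.23-fold lower (log2 change -0.77 ± 0.22, SE, limma adjusted p = 0.0119) and Atf5 1.44-fold (0.0273), while Psph was at 2.32 against 2.49 FPKM (0.786). Psat1 was 1.97-fold lower without overlap and did not pass (limma adjusted p = 0.0523), but passed in 5 of 17 alternatives, among them median-ratio rescaling (0.0288) and quantile normalization (0.0345). Shmt2 was 1.36-fold higher with overlap and did not pass (limma adjusted p = 0.0529), but passed in 4 of 17 alternatives. The Atf5 call in WT was lost without CW18, CW19 or EW12. That made 2 of 9 lower and 0 higher, beside 11.9% and 29.2% of all genes (1326 lower and 3258 higher, or 2006 and 2531 after rescaling). Atf4, Asns and Trib3 were called in neither genotype.

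Set in order of group means, the members fell into several kinds. Phgdh ran CK, CW, EK, EW, and only EK and EW overlapped. Psat1 ran CK, CW, EW, EK, with an overlap of EW and EK alone, and Psph had the same order with an overlap of CW and EW alone. Atf5 also ran CK, CW, EW, EK, from 613 ± 146 through 399 ± 44.1 and 277 ± 25.5 down to 169 ± 38.9 FPKM (SD, n = 3, 3, 5 and 4), and none of its 4 groups overlapped its neighbour. Atf4 (91.5, 77.5, 60.7 and 50.2 FPKM) and Trib3 (10.1, 9.50, 7.01 and 6.73 FPKM) ran CK, EK, CW, EW, and each group overlapped the next. Mthfd2 had that order too, with the same overlaps, and Shmt2 ran CK, EW, EK, CW with overlaps between all neighbours. Asns alone had EK first, ahead of CK, CW and EW, with overlap between neighbours except CK and CW. Aldh1l2 had WT above Aldh2-/- under both diets (0.332 and 0.250 FPKM pair-fed, 0.179 and 0.0602 FPKM under ethanol), overlapping under pair-feeding and not under ethanol.

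The neighbouring pathways were read from 6 gene lists. Their counts are to be read beside the shares of all genes tested. These were 21.5% called higher and 15.7% lower under ethanol, 26.0% and 2.41% under pair-feeding, and 8.06% and 29.0% for the interaction. The list of serine, glycine and folate genes holds 39 genes other than the members. In pair-fed Aldh2-/- livers 6 of 37 tested were called higher and 9 lower, with a median log2 change of -0.01. Sds, the serine dehydratase that breaks serine down to pyruvate, was 5.70-fold lower at 105 ± 38.5 against 597 ± 173 FPKM (limma adjusted p = 0.0055), and Cth, which makes cysteine from cystathionine and is also in the list of metabolic targets, was 3.85-fold lower (0.00491). Among those higher were Tyms, the thymidylate synthase (3.30-fold, limma adjusted p = 0.0133) and Gcsh of the glycine cleavage system (1.71-fold, 0.0108). After median-ratio rescaling 0 were called higher and 10 lower. Counts without 1 library ran from 0 (CK1) to 8 (CW19) higher and from 2 (CK1) to 10 (CK9 and CW19) lower, and were 1 and 3 without CW20.

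Under ethanol 4 of 37 of these genes were called higher and 17 lower, with a median log2 change of -0.34. Amt of the glycine cleavage system was 2.74-fold lower (5.89 ± 1.75 against 16.2 ± 3.06 FPKM, limma adjusted p = 0.000706), its decarboxylase Gldc 2.01-fold (0.0111), the cytosolic Shmt1 1.74-fold (0.000874) and the folate enzymes Mthfd1 and Mthfd1l 1.72-fold and 1.76-fold (0.00975 and 0.0189). Sds (971 ± 278 against 682 ± 188 FPKM) and Cth (783 ± 311 against 636 ± 147 FPKM) did not pass (limma adjusted p = 0.145 and 0.483). The interaction was 3.04 for Sds (limma adjusted p = 0.000295), 2.16 for Cth (0.00119) and -1.45 for Gcsh (0.0001), so Sds and Cth had interactions of the opposite sign to Phgdh, Psat1 and Psph.

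The cytosolic aminoacyl-tRNA synthetases, which load amino acids on tRNA and include known ATF4 targets, were counted with 3 associated genes. In pair-fed Aldh2-/- livers 21 of 23 were called higher and 0 lower, with a median log2 change of 0.67 against 0.26 over all genes. Cars was 3.35-fold higher at 17.3 ± 5.30 against 5.18 ± 1.36 FPKM (limma adjusted p = 0.00993), Tars 2.24-fold (0.00582), Yars 1.89-fold (0.0113) and Nars 1.76-fold (0.0108). The count was 2 (Cars and Tars) after median-ratio rescaling or quantile normalization, where the median stayed above that of all genes (0.35 against 0.02 and 0.01). It was 2 without CK1, 4 without CW20 and 11 without CK2. Under ethanol 1 was called higher, Vars (1.44-fold, limma adjusted p = 0.00531), and 7 lower, among them the tRNA exporter Xpot (1.54-fold, 0.00269), Yars (1.39-fold, 0.0133) and Nars (1.27-fold, 0.00843). The interaction was called for 19 of 23, all below 0, and for 11 of 23 after median-ratio rescaling, with -1.35 for Xpot (limma adjusted p = 0.000189) and -1.13 for Nars (9.54e-05).

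Stress effectors and factors paired with ATF4 were called higher in 11 of 21 cases and lower in 2 under ethanol (median log2 change 0.47). Ddit4, an inhibitor of mTOR signalling, was 11.7-fold higher (288 ± 64.7 against 24.5 ± 20.2 FPKM, limma adjusted p = 0.000747), Hmox1, the inducible haem oxygenase, 5.20-fold (0.000929), the transcription factor gene Jdp2 4.05-fold (0.000593), Txnip, which binds thioredoxin, 2.72-fold (0.000305), and Sesn2, a sensor of leucine, 2.21-fold (0.00886). The apoptosis-linked factor Ddit3, also called CHOP, did not pass, at 3.20 ± 1.23 against 3.01 ± 1.21 FPKM (limma adjusted p = 0.864), nor did Chac1, which degrades glutathione (4.28 ± 2.09 against 2.69 ± 0.775 FPKM, 0.134), or the stress gene Nupr1 (0.701). In pair-fed livers 4 of 22 were called higher, a smaller share than the 26.0% of all genes, and 0 lower, and the list's median of 0.22 was under the 0.26 of all genes. Among the 4 were Eif4ebp1, a repressor of cap-dependent translation (1.84-fold, limma adjusted p = 0.0103), and the C/EBP partner Cebpg (1.58-fold, 0.0169). That count was 0 after median-ratio rescaling, which also turned the list's median to -0.04. Ddit3 was at 10.1 ± 4.33 against 12.7 ± 3.92 FPKM there (limma adjusted p = 0.429). The interaction of Ddit4 was 3.36 (limma adjusted p = 0.0103).

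Metabolic targets of ATF4 went in both directions. Under ethanol 3 of 13 were called higher and 4 lower, beside 21.5% and 15.7% of all genes. Got1, an aspartate aminotransferase, was 3.89-fold higher (1170.1 ± 425 against 301 ± 59.3 FPKM, limma adjusted p = 0.000403) and the stress hormone gene Gdf15 3.29-fold (0.00252). The hepatokine gene Fgf21 was 21.3-fold lower, at a low 0.289 ± 0.220 FPKM in EK against 6.15 ± 2.09 FPKM in EW. The change tested was -2.43 on the log2(FPKM + 1) scale (limma adjusted p = 8.58e-05). In pair-fed livers 2 of 14 were called higher and 4 lower, beside 26.0% and 2.41% of all genes. Aldh18a1, of proline synthesis, was 4.14-fold higher (limma adjusted p = 0.00728) and the mitochondrial Pck2 1.94-fold (0.00935), whereas Got1 was 3.18-fold lower (33.5 ± 11.1 against 107 ± 15.9 FPKM, 0.00604). Fgf21 was at 67.0 ± 48.9 against 18.7 ± 9.17 FPKM and did not pass (limma adjusted p = 0.0653), with a fold of 3.58 that was 2.18 without CK1. It passed without CK9 (log2 change 2.25, limma adjusted p = 0.0154) and with all groups in 1 fit (0.019). Fgf21 and Got1 thus had interactions of opposite sign, -4.07 (limma adjusted p = 0.000396) and 3.59 (4.39e-05).

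Of the amino acid transporters, 4 of 11 were called higher and 2 lower under ethanol, among them Slc3a2 (1.40-fold, limma adjusted p = 0.0135) and Slc7a5 (1.74-fold, 0.0173), which pair to form a carrier of large neutral amino acids. The count of transporters called higher was 2 after median-ratio rescaling, which ended the call of Slc3a2 (adjusted p = 0.053 by limma), and 2 after quantile normalization, which ended that of Slc7a5 (0.0819). The call of Slc3a2 was also lost with all groups in 1 fit (0.0632) and with the replicate block (0.0502), and that of Slc7a5 without EK86 (0.0564). The glutamine carrier gene Slc38a3 was 1.63-fold lower (limma adjusted p = 0.00372). In pair-fed livers 2 were called higher and 0 lower, Slc1a4, a serine and alanine carrier (2.84-fold, limma adjusted p = 0.0141), and the glycine carrier gene Slc6a9 (1.91-fold, 0.0152), and 0 after median-ratio rescaling. For eIF2, its kinases and its exchange factor, 3 of 18 were called higher and 2 lower under ethanol, and 7 of 18 higher and 0 lower in pair-fed livers. Over all genes 21.5% were called higher and 15.7% lower under ethanol and 26.0% higher under pair-feeding, and the list's median log2 changes of -0.02 and 0.33 were near those of all genes (0.04 and 0.26). The pair-fed calls included the endoplasmic reticulum kinase gene Eif2ak3 (2.10-fold, limma adjusted p = 0.0239) and its inhibitor Dnajc3 (1.76-fold, 0.023), and none was called after median-ratio rescaling. Without CK1 or without CW20, 0 transporters and 0 genes of the eIF2 list were called in pair-fed livers, and 0 and 1 of the stress effectors. Under ethanol the count of transporters called higher was 1 without EK86 and 2 without EW7 or EW11, and 1 gene of the eIF2 list was called higher and 0 lower without EK86. The count of that list called lower was also 0 without EK90, EW6 or EW11 and 1 without EK89, EW7 or EW12.

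**Figure D3:**
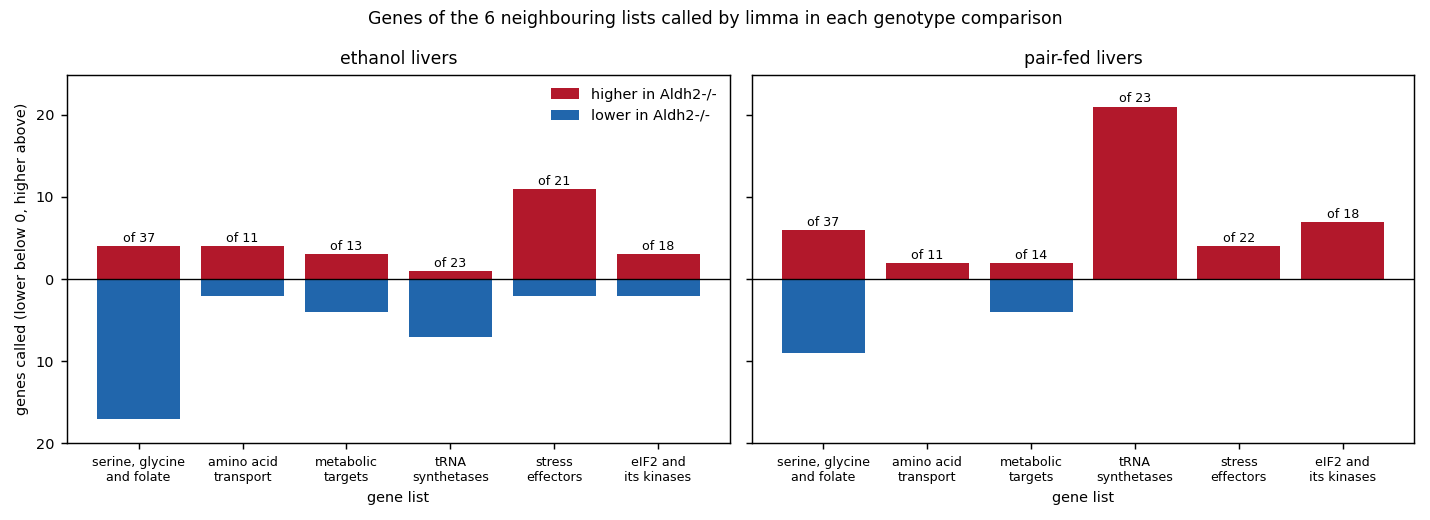
Number of genes called higher (above 0) or lower (below 0) in Aldh2-/- than in WT livers by limma, for 6 gene lists under ethanol and pair-feeding, with the number tested over each bar. The tRNA synthetase list has 21 of 23 genes higher in pair-fed livers and 7 lower under ethanol.

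Proliferation genes were also higher in pair-fed Aldh2-/- livers. Of 16, 13 were called higher in Aldh2-/- and 0 lower, beside 26.0% and 2.41% of all genes. After median-ratio rescaling 9 of 16 were called higher, beside 258 of 11123 genes. Their summed FPKM was 516, 463 and 173 in CK1, CK2 and CK9 against 107, 123 and 81.9 in CW18, CW19 and CW20. CK9 was thus the lowest Aldh2-/- library for this sum as well as for all 10 members. Under ethanol 12 of 16 were called higher and 1 lower, beside 21.5% and 15.7% of all genes. Their summed FPKM was 64.5 to 106 in EK against 36.8 to 48.3 in EW. Psat1 and Psph were called lower in EK, and the Psat1 call was lost in 12 of 17 alternatives. The part of proliferation in the pair-fed rise of the serine genes was not tested. The mitochondrial share differed between CK and CW without overlap, and its part was not tested either.

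The genes most like the members, by Pearson r of log2(FPKM + 1) over the 15 libraries, are given as a description, since libraries of a group share their condition. For Psat1 they were Rfc5 (r = 0.982, and 0.800 after subtracting group means), Nme6 (0.979 and 0.798) and Tyms (0.977 and 0.819). For Mthfd2 they were Trim59 (0.970 and 0.919), Parpbp (0.966 and 0.926) and Kif11 (0.963 and 0.877). Asns had Ppp2r3d (0.932 and 0.879), Dmwd (0.926 and 0.789) and Dhx34 (0.923 and 0.901). Trib3 had lower values, with Gipc2 (0.856 and 0.807) first. Among the members, Phgdh and Psat1 had an r of 0.966 (0.83 after subtracting group means) and Psat1 and Psph 0.971 (0.845), whereas Psat1 and Asns had 0.156 (0.251) and Asns and Atf4 0.736 (0.443).

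**Figure D4:**
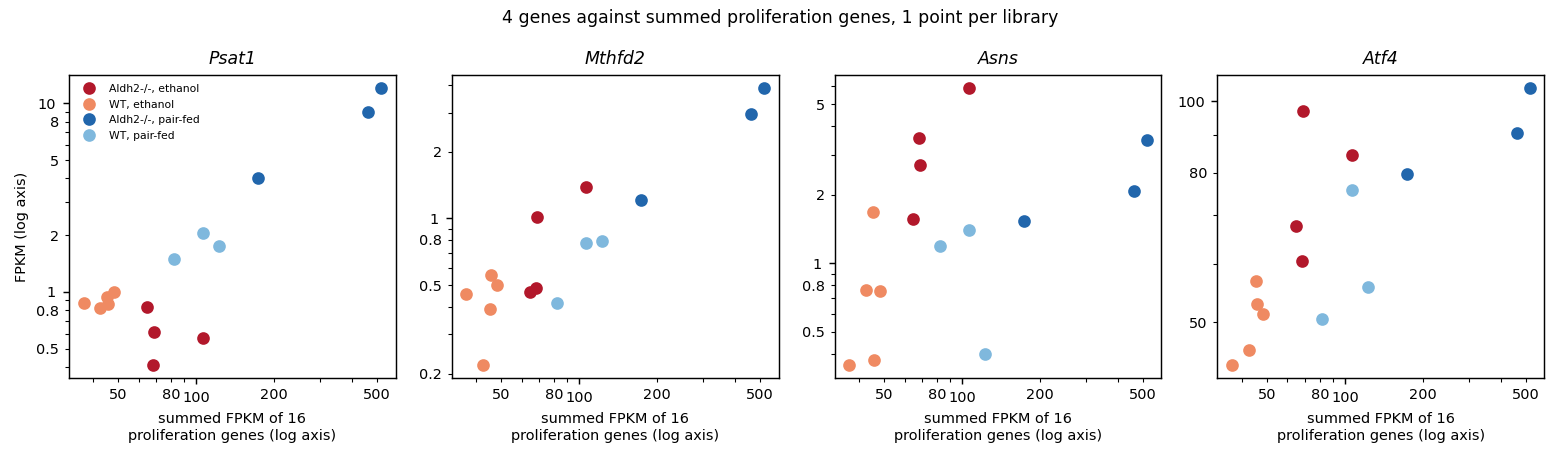
FPKM of Psat1, Mthfd2, Asns and Atf4 (log axis) against the summed FPKM of 16 proliferation genes (log axis), 1 point per library, coloured by group. The pair-fed Aldh2-/- libraries are high on both axes for Psat1, and the ethanol-fed Aldh2-/- libraries are low for Psat1 and high for Asns at sums of 64.5 to 106 FPKM.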

How the data were processed

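RNA was isolated with TRIzol and sequenced as paired reads, per the labels' protocols. Per the submitters' processing notes, fastp, HISAT2 and HTSeq were used with mm10. Versions, annotation and strand setting are not given in the sources used here. The deposited values, in 2 tables (1 per diet), are FPKM computed by the authors. Fragments per gene were inferred from the steps of low values (tolerance 0.02 fragments).

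Differences were fitted with limma 3.58.1 (R 4.3.3, lmFit and eBayes with trend) on log2(FPKM + 1). A gene needed a mean of 0.5 FPKM over the libraries fitted. P-values were two-sided and adjusted over all genes tested (Benjamini-Hochberg, threshold 0.05). Genotype comparisons used the libraries of 1 table, and interaction and diet comparisons all 15. The procedure was tested on simulated data. The members, the 15 lists (238 entries, all found) and the tests were chosen with earlier results of these data known. Named were the members, Aldh2, a panel, up to 4 genes with the smallest p per list and genotype comparison, and the 3 genes most like each of 4 members. As alternatives, the pseudocount was 0.1, the filter was dropped or raised to 2 FPKM, and libraries were rescaled (median ratio or quantiles). Robust variances, the other set of groups, a replicate block and leaving out libraries were also tried. Tables and figures were made in Python 3.11.15 with matplotlib 3.10.9, numpy 2.4.6 and pandas 2.3.3.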

Additional observations from a re-analysis of the deposited data

Results flagged for a closer look

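For 5 members the genotype difference under ethanol differed from that under pair-feeding by limma's test of the interaction: Psph (-2.10), Psat1 (-1.90), Phgdh (-1.42), Atf5 (-1.33) and Shmt2 (-0.85), all on the log2(FPKM + 1) scale. Of the 11157 genes tested, 8.06% were called higher and 29.0% lower. For Psph, Psat1 and Atf5, 3 members, the difference was also called in opposite directions under the 2 diets. The share of all genes with such opposite calls is not given here. Psph kept both of its genotype calls under every alternative in which it was tested. Psat1 lost its ethanol call in 12 of 17 and Atf5 its pair-fed call in 9 of 14. No library stood apart from its group in the 20 sets of 4 or 5 values tested with Dixon's criterion. These sets came from EK and EW, and the pair-fed groups CK and CW (n = 3 each) were not tested in this way.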

How the results depend on the processing

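The scaling of the libraries, the filter and single pair-fed libraries moved the counts of members called. Under ethanol the count was 5, and 2 with a mean of at least 2 FPKM. There Asns, Psph and Psat1 fell under the filter and were not tested, and Atf4 and Atf5 kept the call. Under pair-feeding it was 7, and 3 after median-ratio rescaling, 3 after quantile normalization, 2 with no filter and 2 to 9 when 1 library was left out. For diet in WT livers it was 2, and 4 with a mean of at least 2 FPKM, 1 with no filter, 4 with only the compared groups fitted, 1 with the replicate block and 1 to 3 when 1 library was left out. Apart from the members that fell under the filter under ethanol, the cause of these shifts was not tested. The counts for the interaction and for diet in Aldh2-/- livers, 5 each, stayed within 1.5 times under every setting run. Over all genes the pair-fed comparison called 637 after median-ratio rescaling, 654 after quantile normalization, 1103 with no filter and 294 without CK1, in place of 3162.

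Signs changed for Trib3, Atf4, Psph and Ddit3, in values near 0. The interaction of Trib3 was -0.046 with the replicate block and ran from -0.27 to 0.23 when 1 library was left out, and that of Atf4 ran from -0.17 to 0.12, with -0.0003 without EW5 and EK90. The diet change of Trib3 in WT livers was 0.0048 with the block and -0.19 to 0.072 when 1 library was left out. In Aldh2-/- livers it was 0.029 after median-ratio rescaling, 0.074 after quantile normalization and -0.34 to 0.17 when 1 library was left out. Psph by diet in WT livers ran from -0.18 to 0.048. Ddit3 under ethanol was -0.028 and -0.049 after these 2 scalings, and ran from -0.075 to 0.28, and under pair-feeding from -0.57 to 0.031.

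The replicate numbers do not mark a shared mouse or day in the labels. Deviations of same-numbered libraries from their group means had an r of -0.086 to 0.245, and not every library correlated best with its own number. As a block they moved the counts of members called over 1.5 times only for diet in WT livers. Depth limits Aldh1l2 (3 to 136 inferred fragments per library) and Phgdh, Psat1 and Mthfd2 under ethanol.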
